A study of Mus musculus with 12 samples.

Results

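In cerebral vessels of mice killed 15 min after LPS, 111 genes stood at a higher level than after PBS and were near or below the PBS level in mice killed at 30 min or 4 h. The group was picked from the measurements themselves, out of 54331 genes in the table of normalised counts. After 20 was added to each group mean, a gene had to have a log2 ratio of LPS 15 min over PBS of at least 1, ratios of LPS 30 min and of LPS 4 h over PBS of at most 0.4, and a mean of at least 100 at 15 min. In all, 116 genes met these limits, and 1 gene on the X chromosome and 4 genes with a symbol starting with Slc were left out. The libraries came from wild type C57BL6 mice, 2 to 3 months old, that received PBS, or LPS at 10 mg/kg into the peritoneum with RNA taken 15 min, 30 min, or 4 h later, with 3 libraries per group. Each library pooled the vessels of 1 male and 1 female mouse. No cells were sorted, and markers of neurons, glia, and choroid plexus were present in the forebrain vessel preparation beside the vascular ones. In such bulk RNA, fewer cells of a type and less RNA per cell cannot be told apart.

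Many of the 111 genes are known from neurons rather than from vessels. In the membrane of a neuron, voltage-gated channels such as those of the HCN family set excitability, and ionotropic or metabotropic receptors respond to transmitter. At the presynaptic terminal, priming proteins such as UNC13 make vesicles ready for fusion and synaptotagmins act as calcium sensors. Many such genes are kept silent outside neurons by REST, a repressor that binds a DNA element called RE1. LPS, a component of the bacterial outer membrane, is sensed by TLR4 and is used to model systemic inflammation, and immediate early genes such as Fos are among the first to respond.

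Of the 111 genes, 103 were protein coding and 8 were not, and they lay on 19 autosomes, with 14 on chromosome 9 and 11 on chromosome 11. By the role known for each gene, a grouping made after the members were seen, 19 were adhesion, guidance, or matrix genes, 12 ion channels, 11 signalling genes, 9 noncoding or host transcripts, 8 transmitter or hormone receptors, 8 genes of transmitter release, breakdown, or secretion, 8 RNA-binding or nuclear proteins, 5 cytoskeletal genes, and 2 mucosal secretory proteins. The other 29 were not assigned. All positions given here are on GRCm38, with gene spans from GENCODE M21.

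The 5′ ends of these genes are shown first, because sequence is a feature that the limits did not use and RE1 is an element known from neuronal genes. RefSeq windows of 300 bases, 250 before and 50 after a gene's start, were found for 80 of the 111 genes, as 123 windows. RE1 has a left and a right arm. The left arm was searched as TTCAGCACC and the right arm as GGACAGC, any base, and CC, on both strands, and both were chosen with the members known. The left arm was in 3 of the members' windows, or 2.44%. It was in 0.37% of all 32851 RefSeq windows and 0.36% of the windows of other genes with a mean of at least 100 at 15 min. The right arm was in 4 of the members' windows, or 3.25%, against 0.64% and 0.83%. Both arms in one orientation, within 20 bases of each other, were in 2 of the 123 windows, 10 of all 32851, and 2 of 12652 windows of the other expressed genes. The 2 member windows with both are also counted under each arm, so these figures are not independent. The members with both were Unc13a, a vesicle priming factor, and Grm2, a presynaptic glutamate receptor. Their sites, read from the left arm to the right with the arms in capitals, at chr8:71671727-71671753 on the plus strand and chr9:106656326-106656351 on the minus strand, are

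Unc13a: TTCAGCACCgggggcgcGGACAGCGCC
Grm2: TTCAGCACCacactgtGGACAGCTCC

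The Unc13a site began 4 bases after the start of the gene, in the 5′ UTR of its first exon, and the spacing between the arms was 8 bases. In Grm2 the site began 242 bases before the RefSeq start, upstream of the gene, and the spacing was 7 bases. The 250 bases before the start of Grm2 (chr9:106656110-106656359, minus strand) and of Celsr3, an atypical cadherin of axon guidance (chr9:108825795-108826044, plus strand), which held the left arm alone, give the context of these matches.

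Grm2: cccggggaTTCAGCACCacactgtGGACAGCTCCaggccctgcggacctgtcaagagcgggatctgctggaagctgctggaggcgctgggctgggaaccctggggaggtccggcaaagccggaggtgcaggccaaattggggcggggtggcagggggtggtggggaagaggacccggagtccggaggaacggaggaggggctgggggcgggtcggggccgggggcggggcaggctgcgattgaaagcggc
Celsr3: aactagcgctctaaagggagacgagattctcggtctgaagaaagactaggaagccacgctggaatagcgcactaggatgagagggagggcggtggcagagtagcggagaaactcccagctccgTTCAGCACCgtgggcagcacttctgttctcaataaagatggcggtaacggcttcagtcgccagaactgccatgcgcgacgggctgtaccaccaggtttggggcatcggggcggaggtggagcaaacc

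Syt6 and Actl6b held the right arm alone, so that 5 of the 80 genes held either. A match is a description of letters, and binding of REST was not measured. The members' windows had a median GC content of 64.3%, against 52.7% over all windows and 61.0% over the other expressed genes. A TATA box (TATAAA) was in 4.07% of them, against 13.62% of all windows and 6.99% of those of the other expressed genes. The cyclic AMP response element TGACGTCA was in 0.81%, 1.79%, and 3.04% of the same windows. The AP-1 site TGANTCA, bound by Fos and Jun, was in 4.07%, 7.81%, and 4.92%.

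Several members also carry microRNA hairpins on their own strand, and the sequences are shown because microRNAs such as miR-128 and miR-138 are abundant in neurons and their host transcripts belong to the group. In all, 11 hairpins lay in 9 of the genes. Mir128-2 lay in an intron of Arpp21 (chr9:112118636-112118711, minus strand), Mir370 in an intron of Rian (chr12:109618258-109618336, plus strand), and Mir1224 in an intron of Vwa5b2 (chr16:20604452-20604536, plus strand), whereas Mir138-2 overlapped an exon of C78859 (chr8:94324311-94324381, plus strand). Their mature forms from RefSeq, with the seed, bases 2 to 8, in capitals, are

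mmu-miR-128-3p: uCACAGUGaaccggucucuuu
mmu-miR-138-5p: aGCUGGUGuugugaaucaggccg
mmu-miR-370-3p: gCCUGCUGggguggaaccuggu
mmu-miR-1224-5p: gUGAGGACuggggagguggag

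No 2 of the 17 mature microRNAs in the members shared a seed. The libraries measured the host transcripts and not the mature microRNAs. The host transcripts of miR-124, Mir124a-1hg and Mir124-2hg, were among the members as well.

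The levels below are the authors' normalised counts, which are divided by library size and by transcript length factors. The ratio of LPS 15 min over PBS defined the group and is given as a description. With 20 added, its median over the 111 genes was 1.10 on the log2 scale and its range 1.00 to 4.27, while the median over all 12862 genes with a mean of at least 100 at 15 min was -0.01. Less than 2.5 times the PBS mean was seen in 90 genes, and over 3 times in 6, Muc5ac and Gp2 with a PBS mean of 0 among them. The spread between libraries was small, with a median coefficient of variation of 6.32% at 15 min. In 108 of the 111 genes, each of the 3 libraries at 15 min was above each of the other 9 libraries. The other 3 were Grm2, Lbhd1, and Celf6. With 1.5-fold as the limit in edgeR's glmTreat test on the summed estimated counts, 102 of the 111 genes were called higher at 15 min than after PBS and 0 lower, where 3.31% of the 19150 genes tested were called higher and 0.872% lower. At 30 min against 15 min, 88 of the members were called lower and 0 higher, where 4.65% of all genes were called, 1.96% lower and 2.69% higher. Both counts restate the rule, and the lack of overlap at 15 min, here and below, follows largely from it. How many of all genes showed such a lack of overlap was not counted. At 30 min, 88 of the group means were above PBS and 21 below, and at 4 h 47 were above and 63 below.

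**Figure D1:**
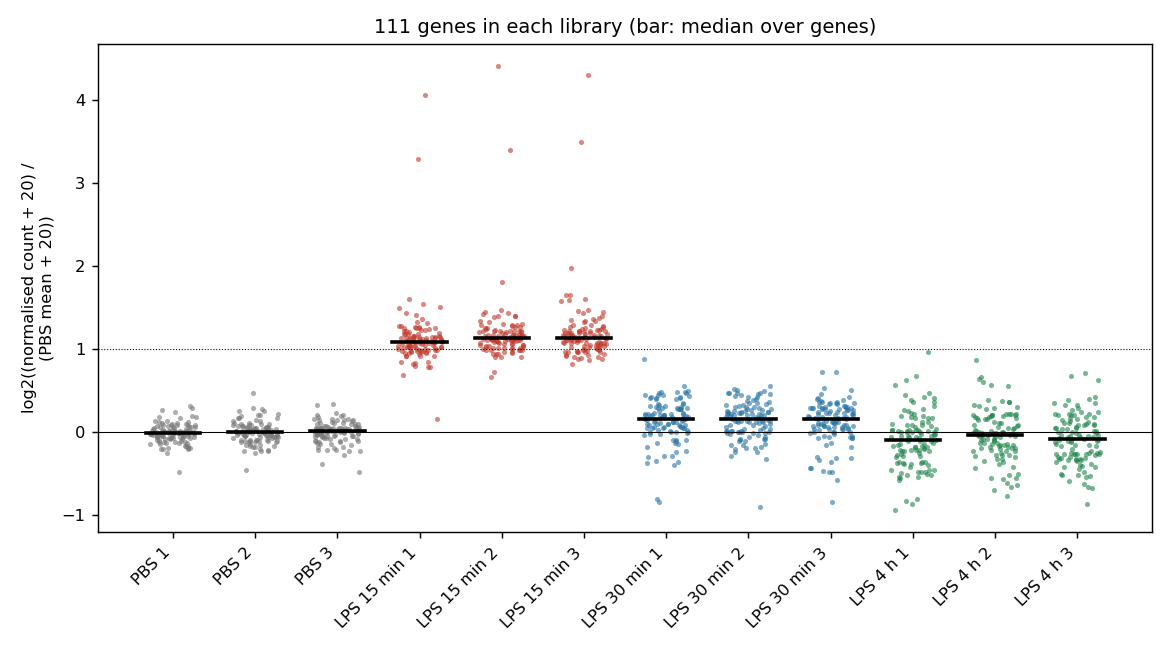
Log2 ratio of the normalised count to the PBS mean, with 20 added to both, for each of the 111 genes (points) in each of the 12 libraries, with the median over genes as a bar. The points of the 3 libraries at 15 min gather around 1, apart from Muc5ac and Gp2 between 3 and 5, and those of the other 9 libraries around 0.

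Ion channels and their subunits numbered 12, with a median log2 ratio of 1.05 at 15 min, 0.03 at 30 min, and -0.13 at 4 h. Ryr3, a calcium release channel of the endoplasmic reticulum, was at 338, 355, and 391 after PBS, at 820.2, 841, and 868 at 15 min, at 197, 365, and 236 at 30 min, and at 194, 291, and 329.9 at 4 h. The libraries at 30 min overlapped PBS, and those at 4 h were all below it. Ryr2, its relative, known for its part in heart muscle and neurons, was at 797, 704, and 888 after PBS and at 1619.7, 1811, and 1483 at 15 min, and Unc80, a subunit of the sodium leak channel complex, was at 884, 770.5, and 837 and at 1625, 1682, and 1856. Hcn3, a channel of the hyperpolarization-activated current, had 2.82 times and Kcnh4, a potassium channel, 2.70 times the PBS mean, and both lay just inside the limit at 30 min.

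Of the 8 receptors, 7 had no overlap between 15 min and the other libraries, with a median log2 ratio of 1.14. Grik2, a kainate receptor subunit, was at 289, 275, and 298 after PBS, at 725, 792, and 719 at 15 min, at 368, 369, and 355 at 30 min, and at 258, 276, and 276 at 4 h. Its libraries at 30 min lay between those of PBS and 15 min. Chrm4, a muscarinic acetylcholine receptor, had the highest ratio of the receptors, from 22.5, 35.2, and 29.6 after PBS to 123, 99.8, and 107 at 15 min, 3.78 times the PBS mean, at a low level. Grm2 was at 98.3, 119.8, and 130.3 after PBS and at 364, 204, and 288 at 15 min, with 247 in 1 library at 4 h, so that its groups overlapped. Cnr1, the cannabinoid receptor of presynaptic terminals, was near the limit at 15 min, with 2.10 times the PBS mean.

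Genes of transmitter release, breakdown, and secretion had a median log2 ratio of 1.06 at 15 min and -0.31 at 4 h. Unc13a was at 2319.9, 2353, and 2351 after PBS, at 4967, 4832, and 5242 at 15 min, at 3094, 2782, and 2762 at 30 min, and at 1792, 1361, and 1779 at 4 h. The 4 groups did not overlap, and 4 h lay below PBS. Vgf, a secreted neuropeptide precursor, was at 762, 743, and 746 after PBS, at 1688, 1507, and 1601 at 15 min, and at 515, 519, and 521 at 4 h, again with 4 h below PBS. Nptx2, a pentraxin secreted at excitatory synapses, was at 117, 129.5, and 113 after PBS and at 253, 296, and 244 at 15 min. Over all 111 genes, the 3 libraries at 4 h were all below the 3 PBS libraries in 29 and all above in 11. The ceiling at 4 h limits the second count, and the same counts over all genes were not made. Neither is read as a trait of the group.

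The 19 adhesion, guidance, and matrix genes had no overlap between 15 min and the other libraries, with log2 ratios of 1.00 to 1.39. Igsf9b, an adhesion molecule of inhibitory synapses, was at 569.6, 601, and 612 after PBS and at 1471, 1637, and 1652 at 15 min. Sez6, known for its part in dendrite and synapse formation, was at 729, 763, and 713 after PBS, at 1578, 1479, and 1621 at 15 min, and at 757, 736, and 783 at 30 min. Its libraries at 30 min overlapped those of PBS. Unc5a, a netrin receptor, was at 383, 352, and 347 after PBS and at 992, 939, and 953 at 15 min, and stood nearest the limit at 4 h. Celsr3 was at 1001, 1070.0, and 922 after PBS and at 2231, 1957, and 2245 at 15 min. Lingo1, a receptor component that limits axon growth and myelination, was at 514, 530.1, and 484 after PBS, at 1004, 1046, and 1214 at 15 min, and at 270.4, 338, and 269.7 at 4 h, the lowest ratio at 4 h in the group, with a log2 value of -0.76.

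Among the cytoskeletal and signalling genes, Sptbn4, a spectrin of the axon initial segment, was at 1939, 1969, and 1849.9 after PBS and at 4381, 4504, and 4428 at 15 min. Camkv, a kinase-like protein of synapses, was at 1616, 1630.1, and 1571 and at 3245, 3305, and 3217. Rap1gap, which switches off the GTPase Rap1, was at 1216, 1396, and 1267 and at 2792, 2711, and 2825. Tyro3, a receptor tyrosine kinase, had 2.24 times the PBS mean, and Rasgrf1, a Ras activator of neurons, 2.06 times. Of the RNA-binding and nuclear proteins, Celf5 was at 1081, 1146, and 1021 after PBS and at 2565, 2534, and 2497 at 15 min. Srrm4, a splicing factor specific to neurons that promotes microexon inclusion, was at 185, 207, and 193 after PBS, at 436, 464, and 419 at 15 min, and at 148, 139, and 134 at 4 h, below PBS in each library. Chd5, a chromatin remodeller of neurons, was at 847, 956, and 954 and at 2066, 2018, and 2053.

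**Figure D2:**
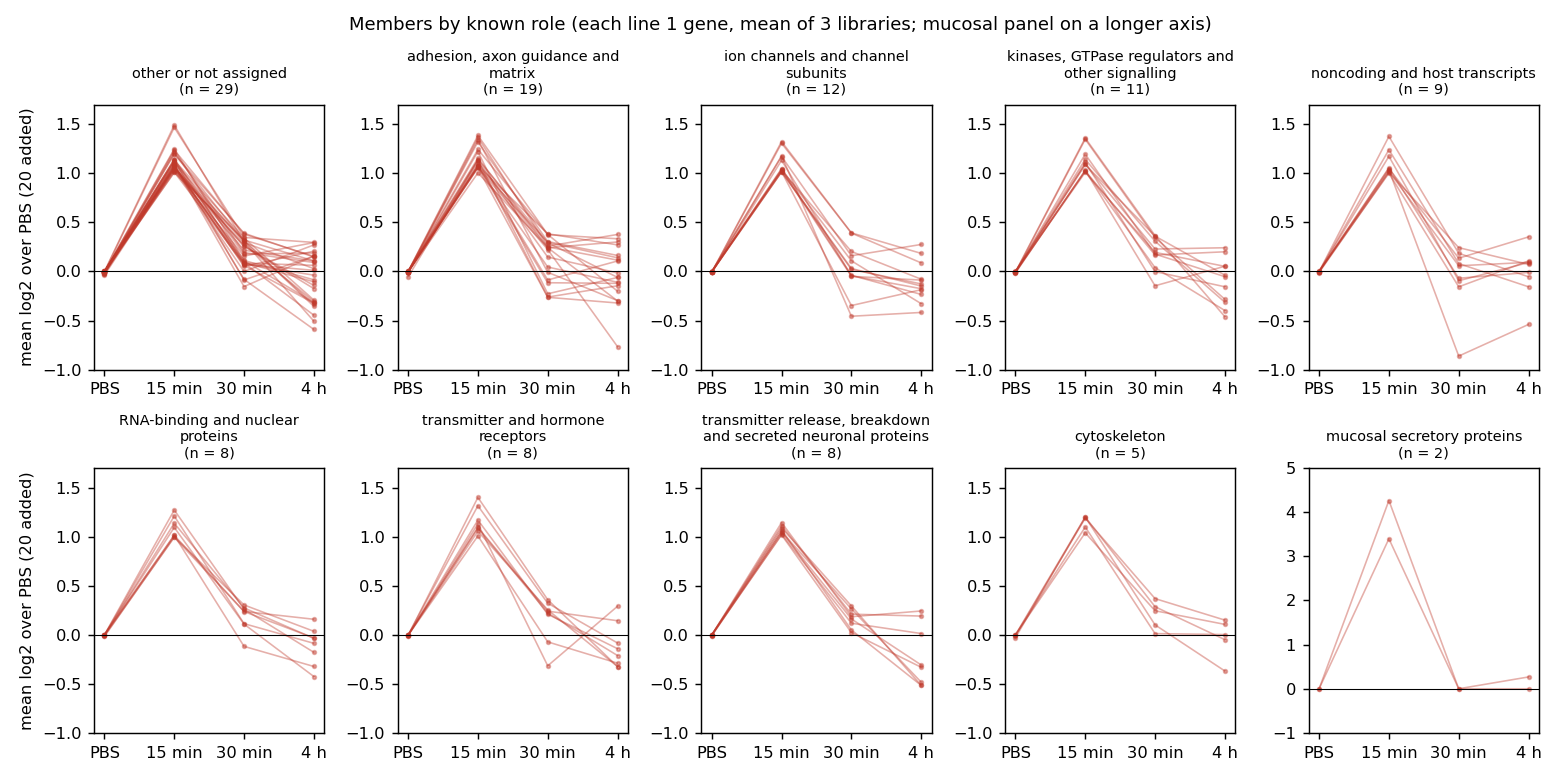
Mean log2 ratio to PBS, with 20 added, at PBS, 15 min, 30 min, and 4 h, 1 line per gene and 1 panel per known role, each point the mean of 3 libraries. The panels share the rise at 15 min that the limits required, and the mucosal panel, with Muc5ac and Gp2, is on a longer axis.

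The noncoding and host transcripts held the highest levels of the group. Snhg11, a host gene of small nucleolar RNAs that is abundant in neurons, was at 20587, 21082, and 20919.7 after PBS and at 43024, 43512, and 43046 at 15 min in the gene table. The transcript files joined to the annotation held 32 to 154 estimated counts of Snhg11 per library. Its gene table level relative to counts scaled by library was 356 times the median of the members, so that the count-based tests do not measure this level. Rian, an imprinted noncoding RNA, was at 4727, 4574, and 4825 after PBS and at 9502, 9519.7, and 9324 at 15 min. Its level relative to counts scaled by library was 3.57 times the median, the only other member more than 2-fold from it. Miat, a nuclear noncoding RNA, was at 4184, 4397, and 4481 and at 8840.3, 9233, and 9167. Mir124a-1hg was at 1829, 1868, and 1957 after PBS, at 4506, 4478, and 4459 at 15 min, at 2006, 1934, and 2044 at 30 min, and at 1619, 1781, and 1671 at 4 h. C78859, which carries the miR-138 hairpin, was at 379, 374, and 333 after PBS and at 962, 989, and 962 at 15 min. Arpp21, which carries miR-128, was at 1125, 1028, and 1021 and at 2015, 2169, and 2302. B230334C09Rik was at 237, 227, and 244 after PBS, at 501, 478, and 536 at 15 min, and at 123, 116, and 123 at 30 min, the lowest ratio at 30 min in the group, with a log2 value of -0.86. In the edgeR test it was the only one of the 111 genes called at 30 min against PBS, lower, where 4.58% of all genes were called in either direction and 0.799% lower. At 4 h against PBS, Lingo1 was called lower and Gp2 higher, where 32.8% of all genes were called. Lingo1 was not called without the first or the third library at 4 h or in DESeq2, and Gp2 was not called without the second library at 4 h. In DESeq2, 0 of the 111 genes were called at 30 min against PBS, so B230334C09Rik was not called there either. The rule set a ceiling and no floor at both times.

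Members that were not assigned to a role spanned a wide range of levels. Trank1, a large protein of little known function, was at 4042, 4088, and 4203 after PBS and at 8794, 9011, and 9268 at 15 min, and Rnf112, a ubiquitin ligase enriched in brain, was at 3228, 3188, and 3218 and at 6704, 6973, and 6775. Traip, a ubiquitin ligase of DNA repair, was at 251, 277, and 344 and at 660.1, 721, and 733. Traip starts 444 bases after the end of Camkv on the same strand, and reads that run on from Camkv were not separated from those of Traip. Ankrd13b and Coro6 abut on opposite strands, and the libraries do not mark strand. Zdhhc22 and Tmem63c also lay within 100 kb of each other, and no other members did.

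Muc5ac and Gp2 differed from the rest in size and in kind. Muc5ac, a gel-forming mucin of airway and stomach (chr7:141788972-141819231), was at 316, 406, and 377 at 15 min and at 0 in each of the other 9 libraries. Its estimated counts at 15 min were 424, 438, and 455, at least 455.7-fold higher than after PBS if 3 counts are allowed to the PBS libraries together. Gp2, a glycoprotein of pancreatic granules and of gut M cells (chr7:119442537-119459285), was at 176, 192, and 206 at 15 min, at 0 after PBS and at 30 min, and at 0, 10.3, and 3.01 at 4 h. Its estimated counts were 238, 207, and 247, at least 239.4-fold higher on the same allowance. Bounds of this kind cover counting error alone. Over the whole list of 16 nasal and airway markers, 7 were at 0 in all PBS libraries and 2 in all libraries at 15 min, and the summed level was 68.1 to 117 after PBS, 681 to 877 at 15 min, 157 to 167 at 30 min, and 2119 to 3098 at 4 h. Muc5ac and Gp2, with means of 366 and 191 at 15 min, are in this list, so its rise at 15 min restates the limits in part. A sum without them was not made. Of the 16 markers, 12 were tested and 4 were called higher at 15 min, the 2 members with Muc5b and Reg3g. Of 16 mucins and secreted mucosal proteins, Muc5ac among them, 7 of 11 tested were called higher. The basal cell marker Krt5 and the secretory markers Scgb1a1 and Tff2 were too low to be tested. Of 11 pancreas acinar markers, Gp2 alone was called higher, and 9 were too low to be tested. The part of other tissue in the levels of Muc5ac and Gp2 was not tested.

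Against this pattern, a list of 10 general neuronal markers, none of them a member, moved unevenly. Its summed level was 11416 to 12048 after PBS, 15067 to 15735 at 15 min, 10428 to 10711 at 30 min, and 7673 to 8135 at 4 h, without overlap between groups. Slc17a7, the vesicular glutamate transporter of excitatory neurons, met the limits of the group and was left out for its symbol, with a log2 ratio of 1.24. Of the other 9, only Syt1, a calcium sensor of synaptic vesicles, was called higher at 15 min in edgeR's glmTreat test (log2 fold change 0.70, SE 0.04, adjusted p = 0.0345), where 4.18% of all genes were called in either direction. The nuclear protein Rbfox3, or NeuN, had a log2 fold change of 0.62 and the dendritic protein Map2 of 0.60, with adjusted p of 0.961 and 1. Snap25, a SNARE protein, had 0.19, and Gad1 and Gad2, the enzymes of GABA synthesis, had 0.28 and 0.26. Stmn2, Tubb3, and Nefl, proteins of the axonal cytoskeleton, had -0.38, -0.13, and -0.11, and none of these passed the 1.5-fold test. Of 7 striatal markers, Rgs9 alone was called higher (0.83, adjusted p = 0.000778), and 0 of the 6 thalamic and cerebellar markers that could be tested were called. The neuronal share of the preparation was not tested apart from these markers.

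**Figure D3:**
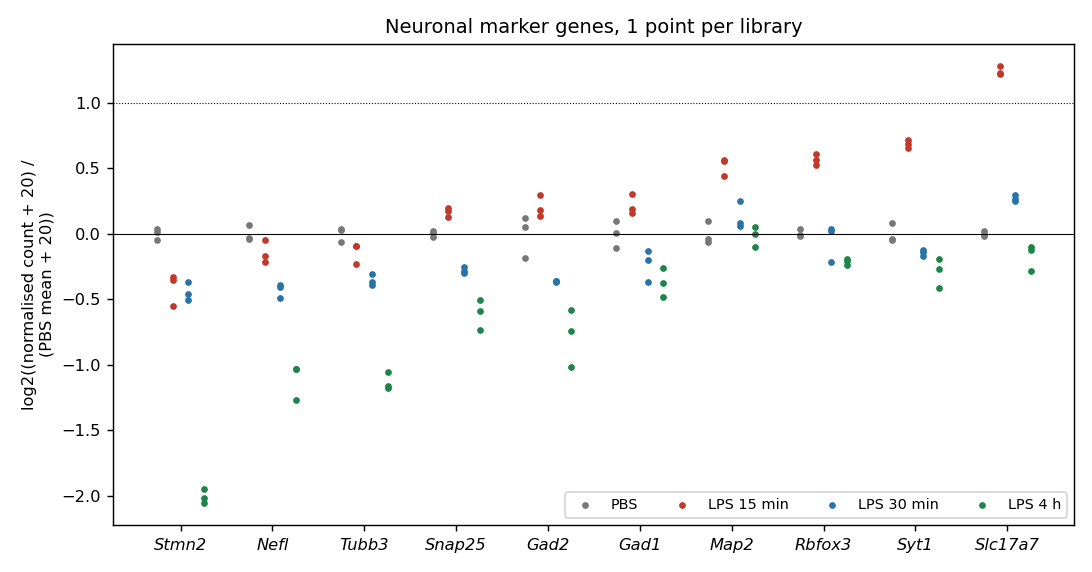
Log2 ratio of the normalised count to the PBS mean, with 20 added, for the 10 neuronal markers, with 1 point per library and colours for PBS, 15 min, 30 min, and 4 h. At 15 min Slc17a7 lies above 1, Syt1, Rbfox3, and Map2 between 0.4 and 0.8, and Stmn2 below 0.

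RNA levels of markers of several other cell types also differed at 15 min. Of 8 pericyte, 8 oligodendrocyte, and 7 microglial markers, 0 were called in either direction, though the oligodendrocyte and microglial sums were lower. The summed level of 6 smooth muscle markers was 70102 to 71434 after PBS and 46710 to 47787 at 15 min, with 3 of 6 called lower, and that of 8 fibroblast and meningeal markers 12735 to 13285 and 8899 to 9021, with 2 of 8 called lower. For 8 astrocyte markers the sums were 19795 to 21864 and 14264 to 16677, and 1 was called lower. The 10 endothelial markers summed to 253546 to 259791 and 259530 to 261947, with 2 called higher and 2 lower. The 10 choroid plexus markers summed to 307153 to 323862 and 264254 to 278738, with 0 called, and the 6 erythroid markers to 49896 to 57003 and 75216 to 79802, with 2 called higher. The part of these shifts in the members' levels was not tested. All 12 of the immediate early genes that the study follows were called higher at 15 min, with a median log2 fold change of 3.08. That list was taken from the study, and its rise was known when it was fixed. Its summed level was 10030 to 10338 after PBS, 77967 to 81872 at 15 min, and 230246 to 233522 at 30 min. The limits fixed the order in time of the 111 genes, so a contrast with this list is not read as a result. The sum of the 111 genes was 83888 to 85217 after PBS and 182450 to 186547 at 15 min. It was 91416 to 93375 at 30 min and 88471 to 90865 at 4 h. Without Snhg11 these 4 sums were 63301 to 64298, 139426 to 143501, 68192 to 70673, and 62038 to 63977.

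**Figure D4:**
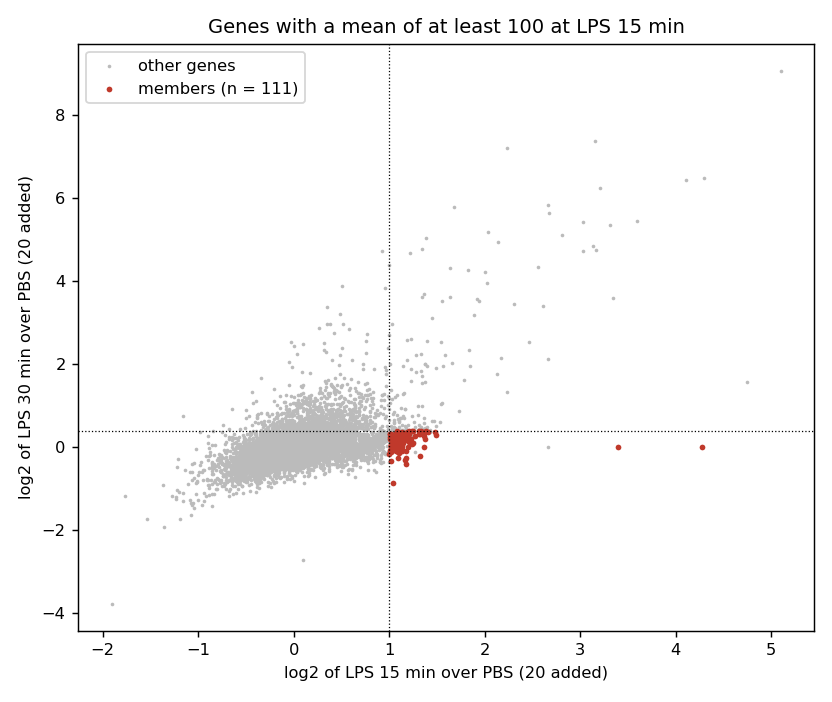
Log2 ratio of LPS 30 min over PBS against that of LPS 15 min over PBS, with 20 added, for the 12862 genes with a mean of at least 100 at 15 min, with the 111 members in red, all others, the 5 left out included, in grey, and the limits as dotted lines. The members sit just to the right of the limit at 1, without a gap to the genes below it, and Muc5ac and Gp2 lie far to the right at 0 on the vertical axis.

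The limits cut through a continuous spread. Just inside the limit at 15 min were Rian, Iglon5, and Cnr1, with log2 ratios of 1.002, 1.005, and 1.009. Just outside were Gm45311, Jakmip3, and Adam22, with 0.9996, 0.9996, and 0.9986. At 30 min, Rundc3a, Kcnh4, and Hcn3 were just inside, with 0.396, 0.395, and 0.395, and Shisa7, Ypel4, and 9330159F19Rik just outside, with 0.406, 0.409, and 0.409. At 4 h, Unc5a, Grm2, and Snhg11 were inside with 0.39, 0.38, and 0.35, and Vipr1 and Aacs outside with 0.49 and 0.57. By level, Clcn1, Chrm4, and Pip5kl1 were inside with means of 106, 110.0, and 124 at 15 min, and Gm10548, Muc4, and Exo1 outside with 59.9, 52.7, and 46.0. Of 269 genes with the level and the ratio at 15 min, 138 were above the limit at 30 min and 15 more at 4 h alone. Outside the group, the genes whose normalised counts over the 12 libraries were most like the members' mean profile were Lzts3, a postsynaptic protein (Pearson's r 0.993), Ap3b2, the neuronal subunit of an adaptor complex (0.992), Ppp1r13b (0.991), Tmem181a (0.990), and Dennd6b (0.990). These correlations are a description over libraries of the same 4 groups and leave out the size of the change. The log2 ratios of these genes at 15 min were 0.81, 0.74, 0.35, 0.65, and 0.71 in the same order, all below the limit of 1.

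The comparison of LPS 4 h with LPS 30 min was the one least tied to the choice of members, but it was not free of it. The limits set only a ceiling on both groups against PBS, and that ceiling left out genes raised at 30 min or 4 h. Of the 111 genes, 5 were called in edgeR's glmTreat test at 1.5-fold, or 4.5%, where 28.6% of all genes were called. Lower calls were 3.6% of the members and 11.8% of all genes, and higher calls 0.901% and 16.9%. The low shares among the members follow in part from the ceiling and are given as a description. The median log2 fold change of 4 h over 30 min was -0.20 over the members and -0.04 over all genes, with 84 members below 0 and 26 above. Lower at 4 h were 4 members. Unc13a fell by 0.81 on the log2 scale (SE 0.04, adjusted p = 1.5e-05), and Lingo1 fell by 1.00 (SE 0.09, adjusted p = 3.54e-05). Chrm4 fell by 1.18 (SE 0.28, adjusted p = 0.0214), and in the gene table its 3 libraries were at 46.7, 47.3, and 35.4 at 30 min and at 22.1, 19.2, and 16.6 at 4 h. Syt6, a synaptotagmin, fell by 0.93 (SE 0.19, adjusted p = 0.0451), from 123, 91.8, and 94.5 to 52.7, 42.8, and 64.8. Of the 5 genes with an RE1 arm, Unc13a and Syt6 were called lower, and Actl6b (-0.29), Celsr3 (0.24), and Grm2 (0.42) were not called. Gp2 was called higher on 0, 7, and 2 estimated counts at 4 h against 0 in all libraries at 30 min, and without the second library at 4 h it was not called (adjusted p = 0.0932). Syt6 was not called in 9 of 20 alternatives, with adjusted p from 0.0534 with RLE factors to 0.53 in DESeq2, and among them were the fits without the first library at 30 min, or the first or second at 4 h. Chrm4 was not called in 5 of 20, DESeq2 (adjusted p = 0.358), both limma fits, and the fits without the second library at 30 min or the third at 4 h. Gp2 was also not called in either limma fit. With library size as the only scaling, the median of all genes moved from -0.04 to -0.58 and that of the members from -0.20 to -0.74, and 55 members were called, 54 of them lower.

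The count-based fold changes and the gene table did not give the same size for every member. In 104 of the 111 genes the log2 value at 15 min from the estimated counts was within 0.3 of that from the gene table. It was lower by more in Snhg11, Tenm2, Cdk18, and Lbhd1, and higher in Muc5ac, Gp2, and Chrm4, whose PBS means are close to or below the 20 that is added. Cdk18, a kinase, had 1.14 in the gene table and 0.67 in the counts, and 1.03 in summed TPM with 1 added. Tenm2, an adhesion molecule, had 1.33, 0.85, and 0.93. The cause of these gaps was not tested. Lbhd1 and Celf6, at low levels, had libraries at 15 min that overlapped the others. Lbhd1 was at 78.6, 289, and 178 at 15 min and at 43.3, 71.1, and 90.6 after PBS, and Celf6 at 97.9, 150.2, and 134 and at 63.3, 53.2, and 43.2. Cdk18, Tenm2, Lbhd1, and Celf6, as well as Actl6b and Mir124-2hg above, were named after their values were seen. The ratio of gene table to summed TPM was taken relative to each gene's own mean and each library's median over members. In 104 members this relative ratio stayed constant to within 2% across libraries.

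Transcripts annotated as retained intron, which keep an intron and are not translated to the full protein, took a larger share of all fragments at 15 min. The share was 5.16%, 5.18%, and 5.16% after PBS, 5.98%, 5.99%, and 6.0% at 15 min, 4.80%, 4.81%, and 4.76% at 30 min, and 4.5%, 4.53%, and 4.51% at 4 h. The groups did not overlap. The difference of 0.82 percentage points between 15 min and PBS had an exact permutation p of 0.1 (two-sided), the smallest that 3 against 3 libraries allow. Among the fragments of the members the share was 9.0% ± 0.09 (SD, n = 3) after PBS, 10.1% ± 0.28 at 15 min, 9.26% ± 0.40 at 30 min, and 8.19% ± 0.20 at 4 h. Such a transcript was annotated in 68 members, and 39 of these, or 57.4%, had a higher mean share at 15 min than after PBS, against 57.2% of 7388 other genes with a mean of at least 100. All 3 libraries at 15 min were above all PBS libraries in 18 of the 68 members, or 26.5%, and in 15.6% of the other genes. In Arpp21 the share was 24.1%, 16.1%, and 25.6% after PBS and 43.2%, 39.7%, and 37.0% at 15 min. In Grik2 it was 33.9%, 44.1%, and 38.1% and 51.5%, 56.2%, and 52.2%, and in Sez6 27.9%, 21.9%, and 25.9% and 31.9%, 37.8%, and 40.2%. In Rgs14, a signalling regulator of hippocampal neurons, it was 0 in all PBS libraries, 40.3%, 58.2%, and 55% at 15 min, and 53.2%, 54.0%, and 56.1% at 30 min. The 15 and 30 min libraries of Rgs14 overlapped. At 4 h its share was 46.6%, 35.6%, and 0, a wide spread within the group, and its level was low, with a PBS mean of 88.5 normalised counts. In 3 of the 68 members, or 4.41%, the 15 min libraries were all below the PBS libraries, as in 6.4% of the other genes. Among them, Rap1gap was at 51.2%, 49.9%, and 49.8% after PBS and at 39.9%, 42.5%, and 45.7% at 15 min, and Mast1, a microtubule-associated kinase named after its values were seen, was at 34.9%, 44.4%, and 45.8% and at 22.7%, 21.8%, and 22.2%. The part of intron-holding or nuclear RNA in the members' levels was not tested.

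**Figure D5:**
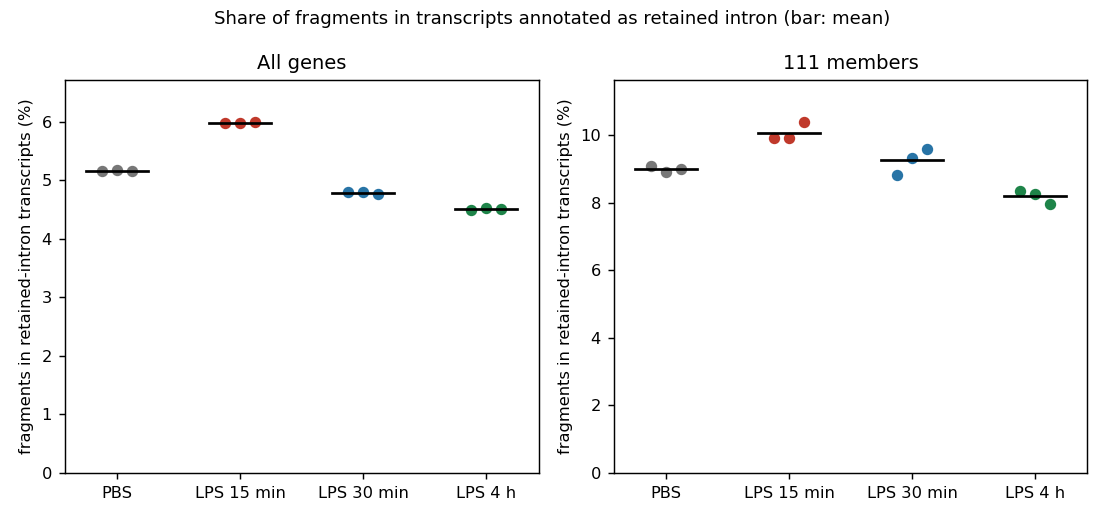
Share of fragments, in percent, in transcripts annotated as retained intron, over all genes (left) and over the 111 members (right), with 1 point per library and the group mean as a bar. Over all genes the 3 libraries at 15 min lie at 5.98% to 6.0%, above the other 9, and over the members at 9.91% to 10.4%.

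The members were also longer than other genes. The 103 protein-coding members had a median span of 47.3 kb, 14 exon blocks, and 6.30 kb of exon, against 26.1 kb, 10 exon blocks, and 4.73 kb in the 11787 other protein-coding genes with a mean of at least 100 at 15 min. These lengths are given as a description.  The depth was 18.3 to 25.9 M estimated fragments per library. The members took 0.316% to 0.318% of the fragments after PBS, 0.681% to 0.700% at 15 min, 0.311% to 0.317% at 30 min, and 0.195% to 0.199% at 4 h. Whether the libraries came from separate days was not given in the sources used here, and the time of the group and the making of its libraries cannot be told apart.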

How the data were processed

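RNA of 12 libraries of cerebral vessels was compared, 3 per group, with groups and numbers from the sample titles. Per the labels and the methods of the study, the libraries were made with a low-input full-length kit that does not mark strand, and Salmon 1.2.1 was run on GRCm38.p6. The deposited estimated counts per transcript are not normalised, and the deposited TPM values are scaled for length and to a constant sum. The deposited gene table holds a normalised signal, gene counts divided by DESeq2 size factors and, from its ratio to TPM, by transcript length factors. The table's sample numbers were matched to the numbers in the libraries' own transcript files.

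Members were taken from the gene table by the limits given above. Estimated counts were summed by gene through GENCODE M21 (99.2% to 99.5% of fragments joined), rounded, filtered with a count minimum of 10, and fitted over all 12 libraries in edgeR 4.0.16 (R 4.3.3), with TMM factors and glmTreat at 1.5-fold. A gene was called at a Benjamini-Hochberg adjusted p under 0.05 over 19150 genes. The code was tested on simulated data. DESeq2 1.42.0 and limma 3.58.1 served as alternatives. The text names the 30 members with the highest mean at 15 min, the 15 with no overlap and the largest ratio of the lowest library at 15 min to the highest other library, the 3 genes on each side of each limit, list genes, called members, and the 5 most alike non-members, as far as each bears on a result, and says where a gene was named otherwise. A few genes that this rule would name are not reported here. The members and the gene lists were chosen with earlier results of these data known. Each library is a pool of 2 mice, and p-values measure the spread between pools. Libraries of a group differed by 2.20 to 2.95 times the counting variance in the median gene, so that none was a copy of another's reads. That each was a separate pool rests on the study's description. Intervals from counts cover counting error only.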

Additional observations from a re-analysis of the deposited data

How the results depend on the processing

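The 111 members depend on the limits. With 50 added in place of 20 there were 73, with a limit of 0.8 at 15 min 248, with a limit of 1.5 only 2, and with limits of 0.2 at 30 min and 4 h 51. Leaving out 1 library gave 98 to 120 genes, 89 to 109 of them shared with the 111. The median log2 value at 15 min was 1.09 to 1.13 without 1 library and 1.04 in summed TPM. At 30 min it was 0.16 to 0.18 without 1 library, 0.15 in scaled counts, and -0.069 in summed TPM, where its sign turned, and at 4 h it was -0.07 to -0.03 without 1 library and -0.71 in summed TPM.

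Of the 5 calls at 4 h against 30 min, those of Unc13a and Lingo1 held under all 20 alternatives. The count was 55 with library size alone, 63 in a test against no change, 3 in DESeq2, 3 in limma with 1 or with 10 added, and 3 to 6 without 1 library, with 3 without the second library at 4 h. The same-numbered libraries were not paired: the correlation of their deviations was -0.06 to 0.05 over 18 comparisons. With the replicate number as a block the count stayed at 5, though the adjusted p of Syt6 became 0.0539. Over all genes, a test against no change called 7393 genes at 15 min, 7066 at 30 min, and 13124 at 4 h against PBS, and 12498 between 4 h and 30 min. DESeq2 called 529 at 15 min, and library size alone called 10462 at 4 h against PBS and 8848 against 30 min. Leaving out 1 library gave 692 to 823, 775 to 879, 6021 to 6371, and 5244 to 5560 calls in these 4 comparisons. Low levels, as of Chrm4, Syt6, and Gp2, limit what can be called.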

Other observations

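In all, 5 genes met all limits and were left out by their chromosome or symbol, and 4 of them are known from neurons. Slc17a7 was at a mean of 1575 normalised counts after PBS and 3748 at 15 min, Slc12a5, the chloride extruder of mature neurons, at 1519 and 3136, Slc6a7, a proline transporter of nerve terminals, at 391 and 829, and Slc30a3, the zinc transporter of synaptic vesicles, at 332 and 776. Tro, on the X chromosome, was at 742 and 1770.2.

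Reg3g, an antibacterial lectin of mucosal epithelium, had 0 counts in the PBS and 30 min libraries, as Muc5ac and Gp2 did, and 113, 110, and 153 estimated counts at 15 min, at least 130.1-fold higher than after PBS with 3 counts allowed to those libraries together. It was no member, since it stood at 20.4, 38.4, and 43.7 normalised counts at 4 h. Muc4, a membrane mucin, was at 60.1, 54.1, and 43.9 at 15 min, at 0 to 1.5 after PBS, and at 0 to 7.87 at 30 min, below the level that members needed.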
